A study of Mus musculus with 2 samples.

Results

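The heat shock chaperones described here are 10 mouse genes of the HSP70, HSP110, J-domain, HSP90, HSP60, HSP10 and endoplasmic reticulum chaperone families. They were taken by name from a gene expression table of 54532 genes, and all 10 were found. The genes are Hspa8, Hspa1a, Hspa1b, Hsph1, Dnajb1, Hsp90ab1, Hsp90aa1, Hspd1, Hspe1 and Hspa5.

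RNA sequencing compared macrophages sorted from the aorta of dyslipidemic mice with a pair of syndromes defined in traditional Chinese medicine. The mice were male and carried ApoE-/- on the C57BL/6J background, and their labelled age was 6 weeks. In the phlegm-dampness retention (PDR) group, mice had 4 weeks of high-fat diet. In the spleen and kidney Yang deficiency (SKYD) group, mice were given propylthiouracil, a drug that lowers thyroid hormone, by gavage at 10 mg/kg per day for 4 weeks and, after it, high-fat diet for 2 weeks. Cells were released by trypsin and sorted by antibodies to the surface proteins of Adgre1 and Itgam (CD11b), which mark macrophages and other myeloid cells. Every group was a pool of cells from 5 mice and gave 1 library, so no difference has a replicate check and no p-value was computed. The SKYD protocol was 2 weeks longer in all. Syndrome, drug, diet time and length of protocol, with any difference in age at sampling that it brought, cannot be told apart in these libraries.

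The deposited values are FPKM, reads divided by gene length in kilobases and by library size, so levels of different genes are compared per length. Whole reads were recovered from the steps between low values, with a total of 23086889 on genes for PDR and 25427863 for SKYD. The intervals given below are 95% exact intervals from these reads. They hold the error of counting alone, and variation among mice is not in them. Of the sort markers, Adgre1 had an FPKM of 87.3 in PDR and 93.3 in SKYD. Itgam had an FPKM of 8.84 in PDR and 14.4 in SKYD. The gene named in the genotype, Apoe, had 17336 reads in PDR and 3618 in SKYD. The table gives 1 value per gene, so these reads do not show which exons of Apoe were read, and PDR and SKYD mean the libraries so labelled.

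Chaperones bind unfolded stretches of other proteins and help them fold, assemble or be degraded. HSP70 proteins work in cycles of ATP use, started by J-domain proteins and reset by nucleotide exchange factors, and they pass some substrates to HSP90. Some family members are made at all times, and others are induced when heat or other stress frees the transcription factor HSF1, which binds inverted repeats of GAA in promoters. Macrophages express chaperones of the cytosol, mitochondria and endoplasmic reticulum, and cell isolation is itself known to induce heat shock genes.

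Promoters were read for these repeats. RefSeq promoter windows (GRCm38.p6, 250 bases before to 50 after a start site) were at hand for 7 of the 10 members and not for Hsp90aa1, Hsp90ab1 and Hspa8. The letters GAANNTTC and TTCNNGAA were searched, which read the same on both strands and overlap in longer runs, and 5 of the 7 members held at least 1 of them in any window, as did 17.0% of the 27025 genes with a window. Of all 32851 promoter windows, 7.86% hold GAANNTTC and 8.52% hold TTCNNGAA. An alternating run of at least 3 units (GAANNTTCNNGAA or TTCNNGAANNTTC) is in 0.603%, and a run of at least 4 units is in 0.0244%, or 8 windows. The stretches below are shown so that the promoters of members with unlike differences can be compared, with the repeat units and their spacers in capitals.
Hspa1a, chr17:34972232-34972281, minus strand: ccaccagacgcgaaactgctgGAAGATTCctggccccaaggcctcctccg
Hspa1b, chr17:34959314-34959363, minus strand: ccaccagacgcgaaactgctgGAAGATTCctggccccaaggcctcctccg
Hspe1, chr1:55088053-55088082, plus strand: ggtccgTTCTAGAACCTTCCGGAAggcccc
Hspd1, chr1:55088053-55088082, minus strand: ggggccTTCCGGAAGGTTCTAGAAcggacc
Hsph1, chr5:149636351-149636380, minus strand: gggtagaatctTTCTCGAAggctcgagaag
Hsph1, chr5:149636287-149636301, minus strand: aTTCTGGAAAGTTCt
Hspa5, chr2:34772020-34772048, plus strand: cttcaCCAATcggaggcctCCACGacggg

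The Hspa1a and Hspa1b stretches are the same letters, 104 to 97 bases before each start site, and lie outside annotated genes. Over the 250 bases before the start the 2 promoters differ at 3 bases. The Hspe1 and Hspd1 lines are 1 site read on its opposite strands. It holds 4 alternating units and lies 89 to 72 bases before the Hspe1 start and 144 to 127 bases before the more downstream of the 2 Hspd1 starts, inside an annotated exon of Hspd1. The site lies after the more upstream Hspd1 start, whose window holds neither GAANNTTC nor TTCNNGAA. Hsph1 has 1 TTCNNGAA 33 to 26 bases before the more upstream of its 2 starts and a run of 3 units 37 to 49 bases after it, both inside annotated exons of Hsph1. In the Hspa5 line the capitals mark another motif, the ER stress element, searched on both strands as CCAAT, 9 bases of any kind and CCACG. That element is in 0.119% of all windows and, among the 7 members with a window, in Hspa5 alone. The Hspa5 element lies 65 to 47 bases before the RefSeq start, inside an annotated exon of Hspa5. The Dnajb1 windows hold neither GAANNTTC, TTCNNGAA nor the ER stress element. A match is a description of the letters, and binding was not tested.

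The 10 members ranged from an FPKM of 0.297 (Hspa1a in SKYD) to 449 (Hspa8 in PDR), and most of their RNA came from constitutive family members. Their FPKM summed to 1359 in PDR and 1004 in SKYD, a ratio of 1.35. They took 0.493% of the reads on genes in PDR (95% CI 0.490 to 0.496) and 0.339% in SKYD (95% CI 0.336 to 0.341). Hspa8, Hsp90ab1, Hspa5, Hspe1 and Hsp90aa1 together made up 93.7% of the summed FPKM in PDR and 94.0% in SKYD. From high to low, the order in PDR was Hspa8, Hsp90ab1, Hspa5, Hspe1, Hsp90aa1, Hspd1, Dnajb1, Hsph1, Hspa1b and Hspa1a. In SKYD the order was the same except that Hsp90ab1 stood above Hspa8. The counting intervals of neighbouring levels overlapped for Hspa1a and Hspa1b in both libraries and for Hspd1 and Dnajb1 in SKYD, and for no other neighbours.

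**Figure D1:**
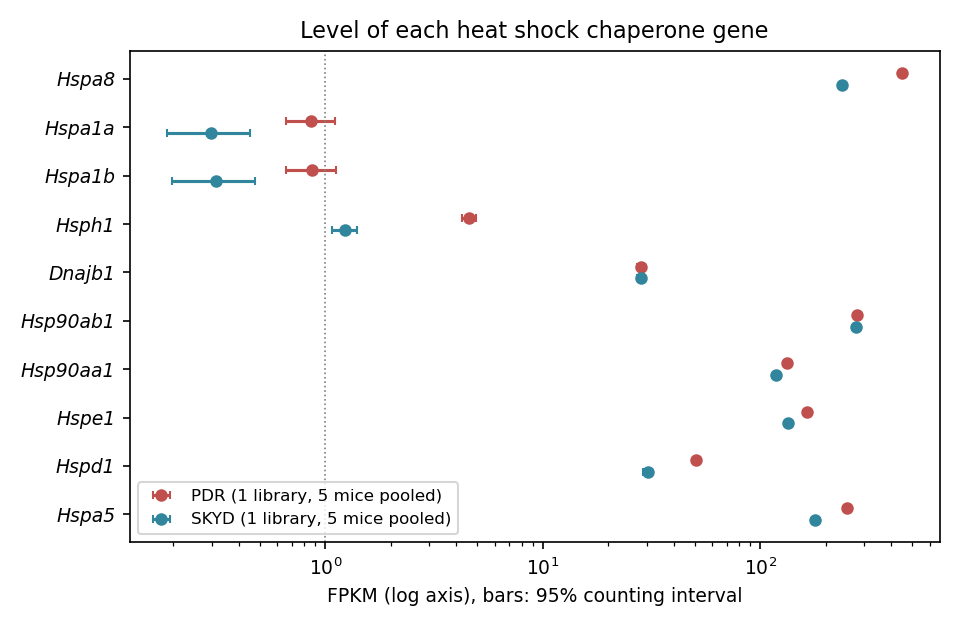
FPKM of each of the 10 genes on a log axis, with 1 point per library (PDR red, SKYD blue) and bars for the 95% Poisson interval of the reads. Hspa1a and Hspa1b lie below an FPKM of 1 (dotted line) in both libraries, while Hspa8 reaches 449 in PDR and 237 in SKYD.

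Every member had a higher FPKM in PDR than in SKYD, but the size of the difference ran from none measurable to several-fold. Differences between the libraries were taken as log2(FPKM + 1) in PDR minus that in SKYD, for genes whose mean FPKM was 1 or more. Adding 1 makes the differences of low genes smaller than their FPKM ratios. Every count of genes beyond 2-fold, here and in the lists below, is on this log2(FPKM + 1) scale, while ratios and folds given with an interval are of FPKM itself. Of 54532 genes, 10399 passed this filter, and 8 of the 10 members did. Hspa1a and Hspa1b, with mean FPKM of 0.579 and 0.590, did not. Of the 8, 1 member (Hsph1) was more than 2-fold higher in PDR, where 767 of the 10399 genes (7.38%) were, and a single gene of 8 does not stand apart from that share. None of the 8 was more than 2-fold higher in SKYD, where 719 genes (6.91%) were. The median difference of the 8 was 0.38, beside -0.0035 for all 10399 genes. Of all genes tested, 49.6% were higher in PDR. The interval of the FPKM ratio lay above 1 for 8 of the 10 members, 6 of them among the 8 that passed the filter, and included 1 for Dnajb1 and Hsp90ab1. At this depth the intervals are narrow, and they lay above 1 for 36.8% and below 1 for 37.7% of the 10399 genes, so an interval that leaves out 1 is common.

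**Figure D2:**
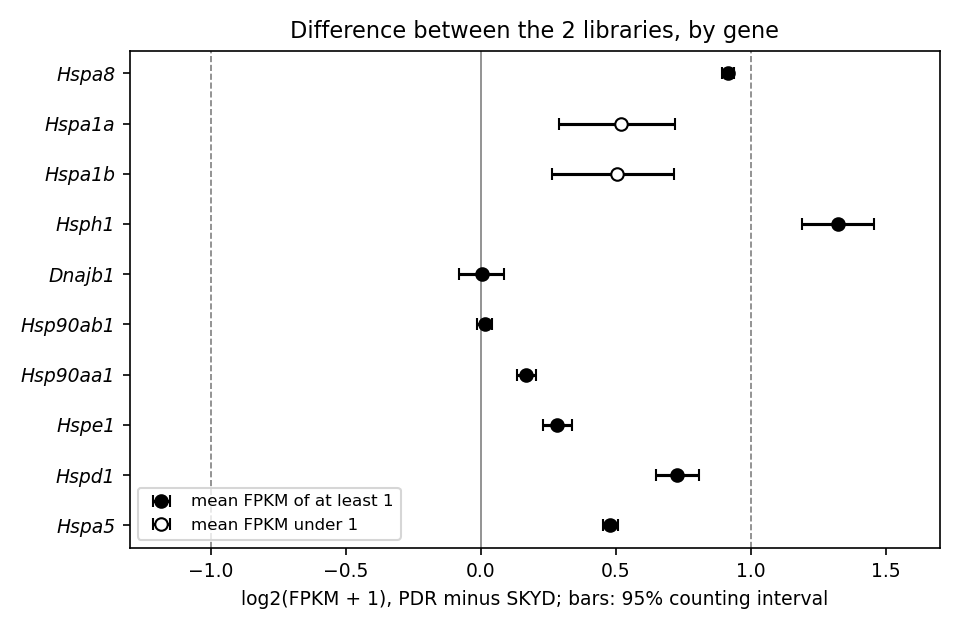
Difference of log2(FPKM + 1), PDR minus SKYD, for each member, with bars for the 95% interval from the split of its reads between the libraries and dashed lines at 2-fold. Open points are Hspa1a and Hspa1b, whose mean FPKM is under 1, and Hsph1 alone lies beyond a dashed line, at 1.32.

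Among the cytosolic HSP70 proteins, the constitutive Hspa8 (HSC70) was the most abundant member in PDR and carried the largest difference in amount of RNA. Hspa8 (ENSMUSG00000015656, chr9:40800984-40810087) had an FPKM of 449 in PDR (45322 reads) and 237 in SKYD (25488 reads). Its FPKM ratio was 1.89 (95% CI 1.86 to 1.92), and its log2(FPKM + 1) difference of 0.92 was above that of 91.5% of the genes tested. Hspa8 made up 33.0% of the summed FPKM of the members in PDR and 23.6% in SKYD. Per unit of Hsp90ab1 its level was 1.62 in PDR and 0.863 in SKYD. Of its distinct 100-base transcript windows, 28.5% also occur in transcripts of other genes, and the 9 genes concerned had 190 reads in PDR and 122 in SKYD in all.

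The stress-inducible pair Hspa1a and Hspa1b had the lowest levels of the 10 members in both libraries. Hspa1a (ENSMUSG00000091971, chr17:34969190-34972156) had 60 reads in PDR and 22 in SKYD, or an FPKM of 0.861 and 0.297. Hspa1b (ENSMUSG00000090877, chr17:34956436-34959238) had 57 reads in PDR and 22 in SKYD, or an FPKM of 0.866 and 0.314. Both copies were thus higher in PDR by a like ratio, 2.90 for Hspa1a (95% CI 1.75 to 4.97) and 2.76 for Hspa1b (95% CI 1.66 to 4.74). On the log2(FPKM + 1) scale the differences were 0.52 and 0.51. The 2 genes lie 9951 bases apart on the same strand, and 1350 of their 100-base windows are identical, which is 47.1% of the distinct windows of Hspa1a. Reads may therefore have been split between them or dropped, and their single values are uncertain. Summed, they had 117 reads in PDR and 44 in SKYD, with an FPKM ratio of 2.83 (95% CI 1.98 to 4.10). Together they reached 0.385% of the Hspa8 level in PDR and 0.258% in SKYD. Their neighbour Hspa1l, a related gene, had 0 reads in PDR and 1 in SKYD. Gm10501, another gene that shares windows with both copies (134 of Hspa1a and 89 of Hspa1b), had 0 reads in PDR and 16 in SKYD, which is many beside the 44 SKYD reads of the pair.

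Other HSP70 proteins were listed beside these. Of 10 genes, 6 passed the filter, 1 was more than 2-fold higher in PDR and none in SKYD, and the median difference was 0.58. Hspa2, an HSP70 best known from germ cells, was the 1 above 2-fold, with an FPKM of 4.15 in PDR and 1.15 in SKYD. Hspa4, an HSP110 relative of Hsph1, had an FPKM of 18.3 in PDR and 10.6 in SKYD, a ratio of 1.73 (95% CI 1.62 to 1.85). Hspa14, a ribosome-associated HSP70, had 13.8 and 14.5.

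Of the partners of HSP70, the nucleotide exchange factor differed most and the J-domain protein did not differ measurably. Hsph1 (HSP110, ENSMUSG00000029657, chr5:149614287-149636376), which resets HSP70 and helps it to dissolve aggregates, had an FPKM of 4.58 in PDR (781 reads) and 1.23 in SKYD (223 reads). Its FPKM ratio was 3.73 (95% CI 3.21 to 4.34), and its log2(FPKM + 1) difference was 1.32 (95% CI 1.19 to 1.46). That difference was above that of 95.1% of the genes tested. No 100-base window of Hsph1 occurs in a transcript of another gene. The level of Hspa8 was 98.0 times that of Hsph1 in PDR and 193 times in SKYD.

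Dnajb1 (HSP40, ENSMUSG00000005483, chr8:83608193-83612653), a J-domain protein that delivers substrates to HSP70 and is itself induced by HSF1, had an FPKM of 28.4 in PDR (2138 reads) and 28.3 in SKYD (2270 reads). Its ratio was 1.002 (95% CI 0.944 to 1.06). Hsph1, Hspa1a, Hspa1b and Dnajb1 are all known HSF1 targets, so ratios of 3.73, 2.90, 2.76 and 1.002 stood side by side within that class. Of 25 other J-domain proteins, 20 passed the filter and none was more than 2-fold different on the log2(FPKM + 1) scale, with 11 higher in PDR, 9 higher in SKYD and a median of 0.09. By FPKM ratio 1 of the 20, Dnajb2, named after its values were seen, was 2.31-fold higher in SKYD (95% CI 1.72 to 3.14). The most abundant, Dnajc8, Dnaja2 and Dnajb11, had FPKM of 85.7, 62.8 and 56.0 in PDR and 95.5, 48.3 and 39.7 in SKYD. Of 12 nucleotide exchange factors and other HSP70 partners, 11 passed and none was more than 2-fold different, with 3 higher in PDR and a median of -0.05. Bag1, the most abundant of these, had an FPKM of 149.8 in PDR and 144.9 in SKYD, and Hspbp1 had 33.4 and 33.5.

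The HSP90 genes were abundant and nearly level. Hsp90ab1 (ENSMUSG00000023944, chr17:45567775-45573271), the constitutive cytosolic HSP90, had an FPKM of 278 in PDR (19554 reads) and 275 in SKYD (20594 reads), a ratio of 1.01 (95% CI 0.991 to 1.03). Whether this interval includes 1 depends on the scaling, since the ratio was 1.05 (95% CI 1.03 to 1.07) per counted reads without the scaling factor behind FPKM, a setting chosen after seeing the data. Hsp90aa1 (ENSMUSG00000021270, chr12:110690605-110702728), the cytosolic form that stress induces more strongly, had an FPKM of 133 in PDR (12298 reads) and 118 in SKYD (11628 reads), a ratio of 1.13 (95% CI 1.10 to 1.15). Hsp90ab1 was 2.08 times as abundant as Hsp90aa1 in PDR and 2.32 times in SKYD. For Hsp90aa1, 1513 of 3982 windows of 100 bases also occur in 3 other genes, which had 343 reads in PDR and 313 in SKYD in all, while none of the windows of Hsp90ab1 do.

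Of 14 paralogues and co-chaperones of HSP90, all passed the filter, with 8 higher in PDR, 6 higher in SKYD and a median of 0.11. Stip1, which links HSP70 to HSP90, had an FPKM of 66.5 in PDR and 40.4 in SKYD, a ratio of 1.65 (95% CI 1.56 to 1.74). Ptges3 (p23), which stabilises closed HSP90, had 54.3 and 54.6. Fkbp5, an HSP90 co-chaperone of steroid receptors that glucocorticoid induces, was the only gene of this list beyond 2-fold, with an FPKM of 1.25 in PDR and 12.6 in SKYD. It was 10.1-fold higher in SKYD (95% CI 8.89 to 11.4), opposite to Hsph1 and Hspa8.

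The mitochondrial chaperonin genes are a head-to-head pair and differed by unequal amounts. Hspd1 (HSP60, ENSMUSG00000025980, chr1:55077835-55088243) forms the folding chamber and had an FPKM of 50.9 in PDR (3157 reads) and 30.3 in SKYD (2001 reads). Its ratio was 1.68 (95% CI 1.59 to 1.78), and its log2(FPKM + 1) difference was 0.73. Hspe1 (HSP10, ENSMUSG00000073676, chr1:55088132-55091307) forms the lid and had an FPKM of 163.9 in PDR (5675 reads) and 134.4 in SKYD (4952 reads), a ratio of 1.22 (95% CI 1.17 to 1.27) and a log2(FPKM + 1) difference of 0.28. The intervals of the 2 ratios do not overlap. The 4-unit repeat site printed above lies before the Hspe1 start and before 1 of the 2 Hspd1 starts. The level of Hspe1 was 3.22 times that of Hspd1 in PDR and 4.44 times in SKYD. The annotated genes overlap by 112 bases on opposite strands, and whether reads there were assigned by strand is not given in the sources used here. Of the windows of Hspd1, 23.9% are shared with other genes, mostly the pseudogene Hspd1-ps3, which had 81 reads in PDR and 68 in SKYD.

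Of 14 other genes of mitochondrial protein quality control, 10 were higher in PDR and 4 in SKYD, none by more than 2-fold, with a median of 0.16. Hspa9, the mitochondrial HSP70, had an FPKM of 29.4 in PDR and 19.7 in SKYD, a ratio of 1.49 (95% CI 1.41 to 1.58). Its exchange factor Grpel1 had 71.5 and 63.3, and the protease subunit Clpp had 41.5 and 54.7. The cytosolic relative of HSP60 is the CCT ring, and 8 of 8 of its subunits that passed the filter were higher in PDR, with FPKM ratios from 1.11 to 1.63. Cct8 had an FPKM of 182 in PDR and 122 in SKYD. Prefoldin, which hands substrates to CCT, was listed with it. Of its 6 subunits, 5 had a higher FPKM in SKYD, so the joint list had 9 genes higher in PDR and 5 in SKYD, with a median of 0.19. Pfdn5 had 175 and 172, and Pfdn2 was the only one of the 14 genes of the joint list beyond 2-fold, with 11.8 in PDR and 25.4 in SKYD.

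In the endoplasmic reticulum, Hspa5 (BiP, ENSMUSG00000026864, chr2:34771970-34777547), the HSP70 that holds nascent secretory proteins and restrains the unfolded protein sensors, had an FPKM of 250.1 in PDR (24843 reads) and 179 in SKYD (18928 reads). Its ratio was 1.40 (95% CI 1.37 to 1.42), and its log2(FPKM + 1) difference was 0.48. Of 25 other ER chaperones and genes of the unfolded protein response, 24 passed the filter, with 15 higher in PDR, 9 higher in SKYD and a median of 0.25. Sec61b, Sdf2l1 and Xbp1 were the most abundant, and they did not share a direction. Sec61b, a subunit of the translocon, had an FPKM of 235 in PDR and 331.5 in SKYD, and Sdf2l1, a partner of BiP, had 222 and 314. Xbp1, a transcription factor of this response, had 249.8 and 211. Hsp90b1 (GRP94), the HSP90 of this compartment, had 139 in PDR and 111 in SKYD, a ratio of 1.25 (95% CI 1.22 to 1.29). Trib3, a pseudokinase induced downstream of ATF4, was the only gene of the 24 beyond 2-fold, with 113 reads in PDR and 13 in SKYD and a ratio of 9.25 (95% CI 5.20 to 17.9).

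Secretory cells make much Hspa5, and their markers also moved between the libraries. Of 10 plasma cell markers, 9 passed the filter and 5 were more than 2-fold higher in PDR, with a summed FPKM of 3706 in PDR and 3083 in SKYD. The most abundant, Jchain, had an FPKM of 2483 in PDR and 2403 in SKYD, and no marker of this list was without reads. The part of plasma cells in the Hspa5 difference was not tested.

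The regulators of the heat shock response were low or did not follow the members. Hsf1, the main heat shock factor, had an FPKM of 2.73 in PDR (456 reads) and 2.69 in SKYD (478 reads), a ratio of 1.02 (95% CI 0.891 to 1.16). Hsf2 had 44 and 49 reads. Hsbp1, a small protein that binds HSF1, had an FPKM of 123 in PDR and 186 in SKYD, a log2(FPKM + 1) difference of -0.60. These are RNA levels, and HSF1 is regulated mainly as a protein.

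Small heat shock proteins hold unfolded proteins without ATP. Of 10 genes listed by name, 5 passed the filter. All 5 of 5 had a higher FPKM in SKYD, 1 by more than 2-fold on the log2(FPKM + 1) scale. The median was -0.84, which is the value of Hspb11, a subunit of intraflagellar transport that shares the family name only. Hspb1 (HSP27 in human cells) had an FPKM of 12.8 in PDR (310 reads) and 89.3 in SKYD (2300 reads), an FPKM ratio of 6.97 in favour of SKYD (95% CI 6.19 to 7.88). Cryab had 2.22 and 5.17, an FPKM ratio of 2.33 in favour of SKYD (95% CI 1.78 to 3.08) that falls under 2-fold once 1 is added, and Hspb11 had 7.85 and 14.9. The interval of the FPKM ratio lay on the SKYD side of 1 for 4 of the 5, Hspb11 among them, as it did for 37.7% of all genes tested. It included 1 for Hspb6, named after its values were seen, which had an FPKM of 2.13 in PDR and 2.25 in SKYD. The genes Hspb2, Hspb3 and Cryaa had no reads in either library.

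Of 16 other genes that HSF1 is known to target, 15 passed the filter, with 9 higher in PDR, 6 higher in SKYD and a median of 0.10. Both of those beyond 2-fold, Hspb1 and Serpinh1, were higher in SKYD. Ubb, a polyubiquitin gene and the most abundant of the list, had an FPKM of 1549.5 in PDR and 1852 in SKYD, and Cacybp had 112 and 97.2. Serpinh1 (HSP47), the collagen chaperone of fibroblasts, had 50 reads in PDR and 318 in SKYD and was 5.98-fold higher in SKYD (95% CI 4.42 to 8.22). Of 10 smooth muscle and fibroblast markers, 3 passed the filter and 2 were more than 2-fold higher in SKYD. Their summed FPKM was 12.4 in PDR and 46.1 in SKYD, most of it from Dcn (10.03 and 39.4), and Myh11, Tagln and Cnn1 had no reads in either library. The part of fibroblasts in the Serpinh1 value was not tested.

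**Figure D3:**
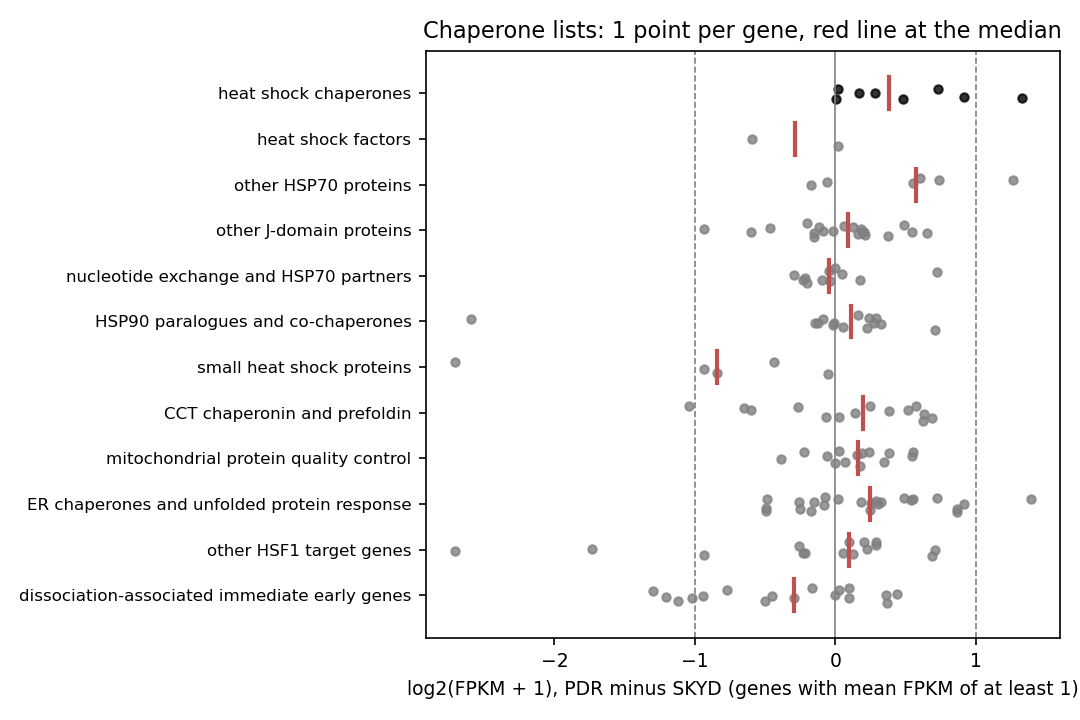
Difference of log2(FPKM + 1), PDR minus SKYD, for each gene whose mean FPKM was 1 or more in the heat shock chaperones (black) and 11 other lists (grey), with a red line at the median of each list and dashed lines at 2-fold. The 8 chaperones lie at or above 0, with a median of 0.38. The genes listed as small heat shock proteins lie below 0, with a median of -0.84 that is the value of Hspb11.

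Genes that tissue dissociation is known to induce were listed because it can also induce Hspa1a, Hspa1b, Hsph1 and Dnajb1. Of 18 such immediate early genes, 17 passed the filter, with 6 higher in PDR, 11 higher in SKYD and a median of -0.30. Beyond 2-fold on the log2(FPKM + 1) scale, 4 (Dusp1, Ier3, Socs3 and Klf4) were higher in SKYD and none in PDR. By FPKM ratio Egr2, named after its values were seen, was also beyond 2-fold, at 4.39-fold higher in SKYD (95% CI 2.94 to 6.74). Dusp1, the most abundant, had an FPKM of 95.1 in PDR and 235 in SKYD, Junb had 115 and 163, and Ier2 had 104 and 102. The part of cell isolation in the values of the members was not tested.

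Marker genes of several cell types also differed between the libraries. In bulk RNA, fewer cells of a type and less RNA per cell cannot be told apart. Of 18 macrophage markers, all passed the filter, 6 were more than 2-fold higher in SKYD and none in PDR. Their summed FPKM was 24995 in PDR and 48307 in SKYD, with Lyz2 the most abundant, and their median difference was -0.61, opposite in sign to that of the chaperones. Of 11 B cell markers, 9 passed and 8 were more than 2-fold higher in PDR, with a summed FPKM of 5528 in PDR and 3322 in SKYD, a median of 2.60 and Ighm the most abundant. All of the 13 T cell and thymocyte markers were more than 2-fold higher in SKYD, with a summed FPKM of 243 in PDR and 1689 in SKYD. Cd8b1 was the most abundant of these, and Rag1, Rag2 and Ptcra had 0 reads in PDR.

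Of 10 neutrophil markers, 4 were higher in PDR by more than 2-fold and none in SKYD, with a summed FPKM of 4816 in PDR and 3631 in SKYD and S100a9 the most abundant. Of 12 hepatocyte markers, 10 were more than 2-fold higher in PDR, with a summed FPKM of 2312 in PDR and 789.8 in SKYD and Apoa2 the most abundant. Of 15 genes of proliferating cells, which need chaperones for rapid protein synthesis, 11 were higher in PDR and 4 in SKYD. Of the 11, 2 were higher by more than 2-fold. The 15 genes had a summed FPKM of 472 in PDR and 383 in SKYD. Pcna, the most abundant, had an FPKM of 127 in PDR and 139 in SKYD. Erythroid markers summed to 20989 in PDR and 28335 in SKYD, led by Hba-a1, and none of the 6 that passed was beyond 2-fold, while Klf1 had 0 reads in PDR. Platelet and megakaryocyte markers summed to 249.99 in PDR and 1470 in SKYD, most of it Pf4, and Gp1bb had no reads in either library. Endothelial markers were low, with a summed FPKM of 4.96 in PDR and 3.41 in SKYD, Pecam1 the most abundant and the only one to pass, and Emcn at 0 reads in PDR. The part of these cell types in the differences of the chaperones was not tested.

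**Figure D4:**
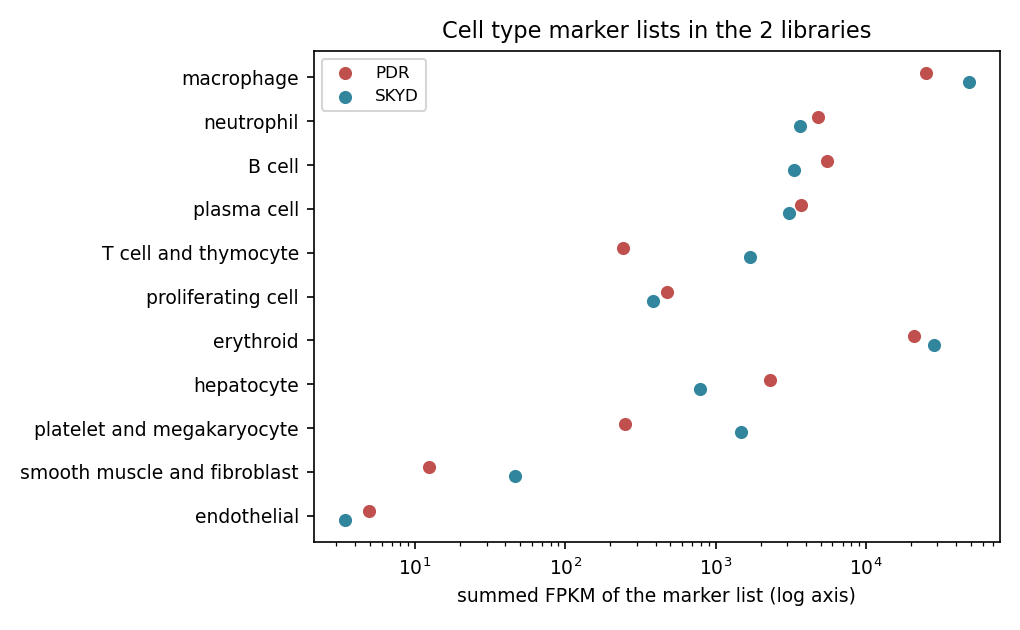
Summed FPKM of each of 11 cell type marker lists on a log axis, with 1 point per library (PDR red, SKYD blue). The macrophage sum is 24995 in PDR and 48307 in SKYD, and the B cell sum is 5528 in PDR and 3322 in SKYD.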

How the data were processed

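Total RNA of sorted aortic macrophages was sequenced in 1 library per group. Per the labels, the authors' processing notes name TopHat2 2.0.9, Bowtie2 2.0.6, HTSeq 0.6.1, DESeq 3.18.1 and the build mm9. The authors deposited FPKM per gene with gene length and position. Of 54409 genes shared with GENCODE M21 (GRCm38), 98.3% have the same chromosome, start and end, so coordinates are given on GRCm38. How reads that match several genes were counted is not given in the sources used here.

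FPKM times gene length was divided by its smallest step, taken as 1 read. All values above 0, in 17738 genes of PDR and 20499 of SKYD, came out whole within 0.02 reads. The library size behind FPKM was 1.02 times the reads on genes in PDR and 0.983 times in SKYD, factors whose product is 1. A count of 0 allows up to 3 reads, or 1.30e-05% of the PDR reads and 1.18e-05% of the SKYD reads.

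Ratio intervals come from Clopper-Pearson limits on the share of the reads of a gene that fell in PDR, and level intervals are Poisson limits. The pseudocount was 1, the filter a mean FPKM of at least 1 and the threshold more than 2-fold. Shared sequence was counted as distinct windows of 100 bases of GENCODE M21 transcripts found, on either strand, in transcripts of another gene.

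The members and the 11 pathway and 11 marker lists were chosen with earlier results of these data known, and some genes stand in more than 1 list. Named genes are the 10 members, the 3 genes of each pathway list with the highest mean FPKM and those beyond 2-fold, and the top gene and unread markers of each marker list. Not every gene so chosen is described, and Hspa1l, Gm10501, Hspd1-ps3, Apoe, Adgre1 and Itgam were named as copies, neighbours or label checks. The steps were tested on simulated data. Computation used scipy 1.17.1, pandas 2.3.3 and numpy 2.4.6 under Python 3.11.15, and plots used matplotlib 3.10.9. Alternatives were other pseudocounts, filters, scalings, fold thresholds and biotypes, and Hspa1a and Hspa1b summed.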

Additional observations from a re-analysis of the deposited data

How the results depend on the processing

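No paired analysis was possible because each group has 1 library. A pseudocount cannot turn the sign of a difference, and each scaling run shifted the members towards PDR, so these say nothing of how stable the direction is. With the filter at a mean FPKM of 5, the counts beyond 2-fold were 464 genes for PDR, 373 for SKYD and 0 members for PDR, since Hsph1 is not tested, and the median of the 7 members left was 0.28. With a threshold of more than 4-fold the counts were 194 genes in PDR, 216 in SKYD and 0 members in PDR. Among protein-coding genes the counts beyond 2-fold were 542 for PDR and 473 for SKYD. The median of the members was 0.49 with no filter and 0.48 with Hspa1a and Hspa1b summed. It was 0.43 when scaled to counted reads without the factor behind FPKM, a scaling chosen after seeing the data, and the other scalings and pseudocounts left it within its counting interval (0.34 to 0.42). Of 60 member values under other pseudocounts and scalings, 49 stayed within their counting interval and 11 moved beyond it. With a pseudocount of 0.1, Hspa1a was at 1.28 and Hspa1b at 1.22 on the log2 scale, past 2-fold, though below the filter. Hsph1 was at 1.82.

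Depth limits Hspa1a and Hspa1b most, since their values rest on 22 to 60 reads. Gene length, near-identical copies, the make-up of the sorted cells and the feeding all limit comparisons, and 1 library per group gives no spread between mice.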

Other observations

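The promoter letters were also read in the other lists, and genes in this paragraph were named for those letters after their values were seen. Of 22 ER chaperones and genes of the unfolded protein response with a promoter window, 6 held the ER stress element that Hspa5 holds, against 0.137% of all genes with a window. They were Calr, Canx, Creld2, Dnajc3, Hsp90b1 and Pdia6. Creld2 had an FPKM of 192 in PDR and 102 in SKYD, a ratio of 1.89 (95% CI 1.81 to 1.97). Calr had 152 and 150.1, and Canx had 21.3 and 25.7, so genes with the element did not share a direction. Of 13 HSP90 paralogues and co-chaperones with a window, Chordc1 alone held a run of at least 4 GAA units, as Hspd1 and Hspe1 do. Such a run is in 0.0296% of all genes with a window. Chordc1 had an FPKM of 9.99 in PDR and 7.99 in SKYD, a ratio of 1.25 (95% CI 1.17 to 1.34). Of 23 other J-domain proteins with a window, Dnajb6 alone held a run of 3 units, against 0.662% of all genes with a window. Dnajb6 had an FPKM of 21.6 in PDR and 21.8 in SKYD. Of 8 genes listed as small heat shock proteins with a window, 4 held GAANNTTC, as Hspa1a and Hspa1b do, against 9.04% of all genes with a window. They were Hspb1, Hspb3, Hspb6 and Hspb8, with FPKM in PDR and SKYD of 12.8 and 89.3 for Hspb1, 2.13 and 2.25 for Hspb6 and 2.51 and 3.75 for Hspb8, and no reads for Hspb3 in either library.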
